A study of Mus musculus with 6 samples.

Results

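The miR-34 and miR-449 family is a group of microRNAs (miRNAs, short RNAs that bind messenger RNAs and lower their output) whose members share one seed, the stretch near the 5′ end that pairs with targets. The members described here were chosen by name from a mouse miRNA panel as miR-34a, miR-34b-5p, miR-34c, miR-449a and miR-449b, which are 5 of its 380 named miRNAs. Serum exosomes, vesicles that cells shed into the blood, were the source of the RNA, and the readout was quantitative PCR with SYBR Green. All mice, controls included, were 2 weeks past ACLT, which in this field stands for anterior cruciate ligament transection, an operation that destabilises the knee and leads to osteoarthritis. There were 3 Vehicle samples, from mice given vehicle, and 3 OCExoInhib samples, from mice given OCExoInhib. What the name OCExoInhib stands for, and its dose, are not in the labels. The design text speaks of pooling equal amounts of RNA from 3 mice a group, and whether each sample is 1 mouse or 1 run of a pool is not stated, so p-values cover the variation among these 6 samples alone and that variation may be technical. The labels name no strain, sex or age.

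Mir34a is a direct transcriptional target of the tumour suppressor p53, as is the transcript that carries Mir34b and Mir34c. The family restrains cell division and survival through targets such as Bcl2, Met and Sirt1. miR-34b, miR-34c and the miR-449 members are best known from multiciliated epithelia and the male germ line. In the skeleton, miR-34a is known to restrain osteoclast formation through Tgif2, miR-34c to act on Notch signalling in osteoblasts, and miR-34a to promote chondrocyte senescence and death in models of osteoarthritis.

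The mature sequences are shown because the seed defines the family and the bases after it are what sets one assay's target apart from another's. They are the panel's own sequences, written 5′ to 3′ with the seed (bases 2 to 8) in capitals.
miR-34a: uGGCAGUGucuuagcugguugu
miR-34b-5p: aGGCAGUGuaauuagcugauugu
miR-34c: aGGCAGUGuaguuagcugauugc
miR-449a: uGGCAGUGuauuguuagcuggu
miR-449b: aGGCAGUGuuguuagcuggc
miR-449c: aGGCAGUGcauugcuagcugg

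Of the 380 named miRNAs 6 carry the seed GGCAGUG, the 5 members and miR-449c. miR-449c and miR-34b-3p, the other arm of the Mir34b hairpin with a different seed, had no threshold cycle in any sample and are not described further. The closest pair is miR-34b-5p and miR-34c, identical at 21 of 23 positions (91.3%) and different by A11G and U23C, counted from the 5′ end with miR-34b-5p first. In pairwise global alignments miR-34a was 82.6% identical to miR-34b-5p, 78.3% to miR-34c, 73.9% to miR-449a and 69.6% to miR-449b. miR-449a and miR-449b were 81.8% identical.

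In RefSeq (build GRCm38.p6) the family lies at 3 loci. Mature miR-34a is at chr4:150068473-150068494 on the plus strand, and no other gene of the RefSeq table spans its hairpin. miR-34b-5p (chr9:51103610-51103632) and miR-34c (chr9:51103076-51103098) lie on the minus strand, and their hairpins fit within 612 bases inside the spans of Btg4 and Hoatz. miR-449a is at chr13:113037549-113037570 on the plus strand, and its hairpin, that of Mir449b and that of Mir449c fit within 1642 bases inside the span of Cdc20b. The panel sequences of miR-34a, miR-34b-5p and miR-449a equal a RefSeq mature miRNA and that of miR-34c was found within the Mir34c hairpin. That of miR-449b had no exact match among the RefSeq sequences used, so it was not placed. Whether these positions are exonic or intronic was not analysed here.

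The raw value of an assay is its threshold cycle (Ct), the cycle at which fluorescence crosses a set line, so that a lower Ct means more template and 1 cycle is about 1 doubling. At Ct 35 or later there is little template, and such values are called late here. A Ct was recorded in every sample for 123 named miRNAs and in none for 257. Between 108 and 109 had a Ct under 35 in each vehicle sample and between 112 and 117 in each OCExoInhib sample. Log2 levels below are the negative of the deposited normalized values, which set each Ct against the average of 3 wells (P21, P22, P23) of the same sample. That well mean was 30.92 cycles in vehicle and 30.19 in OCExoInhib samples. Differences are OCExoInhib minus vehicle, tested with limma over the 115 miRNAs for which 3 or more of the 6 samples gave a Ct below 35. All 5 members passed this filter.

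Of the 5 members, 1 was higher in OCExoInhib samples and 0 were lower at a Benjamini-Hochberg adjusted p under 0.05. miR-34a rose 67.4-fold, and miR-34b-5p, miR-34c, miR-449a and miR-449b, which share its seed, did not pass the test on the deposited normalization. Over all 115 tested miRNAs 23.5% passed, 6.09% upward and 17.4% downward, so 1 call among 5 members is near the background of this panel. The median log2 difference of the members was −0.41, beside −0.54 over all tested miRNAs.

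**Figure D1:**
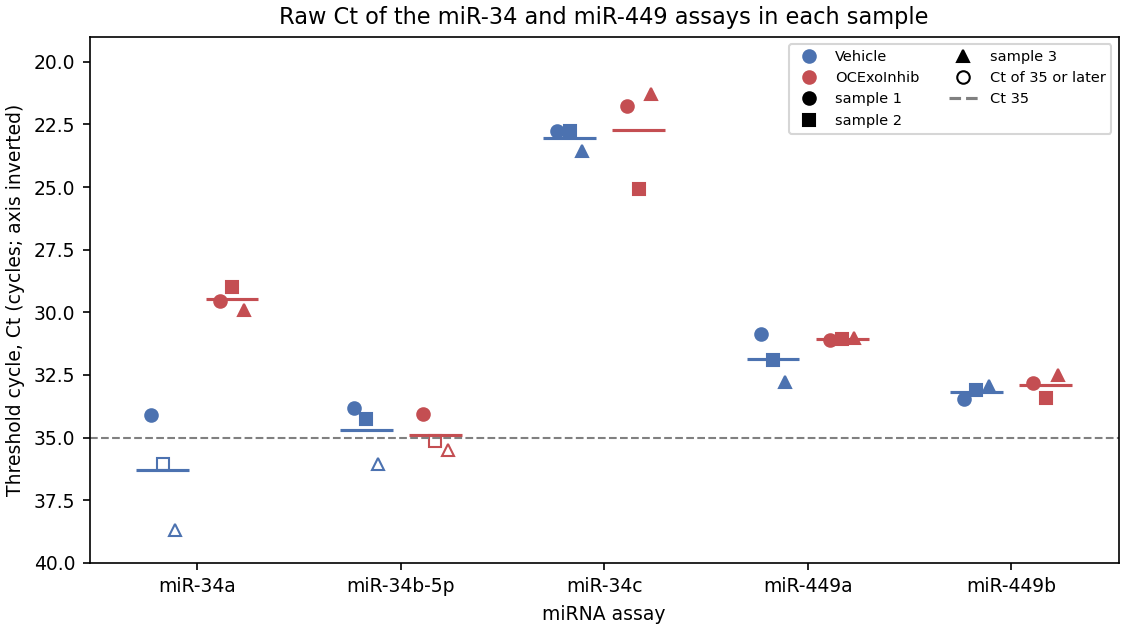
Raw Ct (y axis, cycles, inverted so that more template is higher) of the 5 assays (x axis) in 3 vehicle (blue) and 3 OCExoInhib (red) samples, with horizontal bars at group means, a dashed line at Ct 35 and open symbols for values at 35 or later. The groups separate for miR-34a, at mean Ct 36.3 against 29.5, and overlap for the other 4 assays in raw Ct.

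miR-34a, the p53 target that restrains osteoclast formation, had Ct 34.115 in vehicle 1, 36.04 in vehicle 2 and 38.67 in vehicle 3. In OCExoInhib samples 1, 2 and 3 it had Ct 29.54, 28.97 and 29.918. The 3 OCExoInhib samples thus lay within 0.948 cycles of each other, while the vehicle samples spanned 4.555 cycles and 2 of them were at 35 or later. On the normalized scale the log2 level was −3.12, −5.47 and −7.48 in vehicle 1, 2 and 3, and 0.81, 1.66 and −0.32 in OCExoInhib 1, 2 and 3. No vehicle sample reached any OCExoInhib sample. The log2 difference was 6.07 (SE 1.01, 95% interval 3.93 to 8.22, limma adjusted p 0.000193), and the groups of 26.1% of all tested miRNAs did not overlap either.

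The direction of the miR-34a difference held in each of the 22 alternatives in which it was tested, but its size rested on late and scattered vehicle values. With every Ct above 35 set to 35 the fitted difference was 22.7-fold (log2 difference 4.50, adjusted p 0.000247). With late values set to missing, vehicle 1 was the only vehicle value and the difference was 14.3-fold (log2 3.84). The fit then gave an adjusted p of 0.0125 in limma, with the lone vehicle sample assumed to vary like the OCExoInhib samples and the other miRNAs. Without vehicle 1 the fold was 146.2, and without vehicle 3 it was 32.3, so each of these samples alone moved it by more than 1.5 times. The vehicle SD of miR-34a (2.18 on the log2 scale) ranked 5 among the 115 tested miRNAs from the largest down, while its OCExoInhib SD (0.99) ranked 47. An equal-variance test without limma's sharing of variance between miRNAs gave an adjusted p of 0.0649, which misses the threshold, and over all alternatives its adjusted p ran from 1.1e-07 to 0.0649. The authors' deposited table gave a vehicle over OCExoInhib ratio of 0.015 for miR-34a.

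The filter on late cycles bears on this call. miR-34a was under Ct 35 in 3 OCExoInhib samples and 1 vehicle sample, so it entered the test through the group in which it was higher. The same was true of all 7 tested miRNAs with at least 2 late vehicle values, and all 7 were called higher. The filter had left out 8 other miRNAs with at least 2 late vehicle values. Without it 123 miRNAs were tested, 7 were called higher, and miR-34a still passed (limma adjusted p 0.000172). When all 6 samples had to be under Ct 35, miR-34a and miR-34b-5p were not tested, and 0 of the 3 members left passed.

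**Figure D2:**
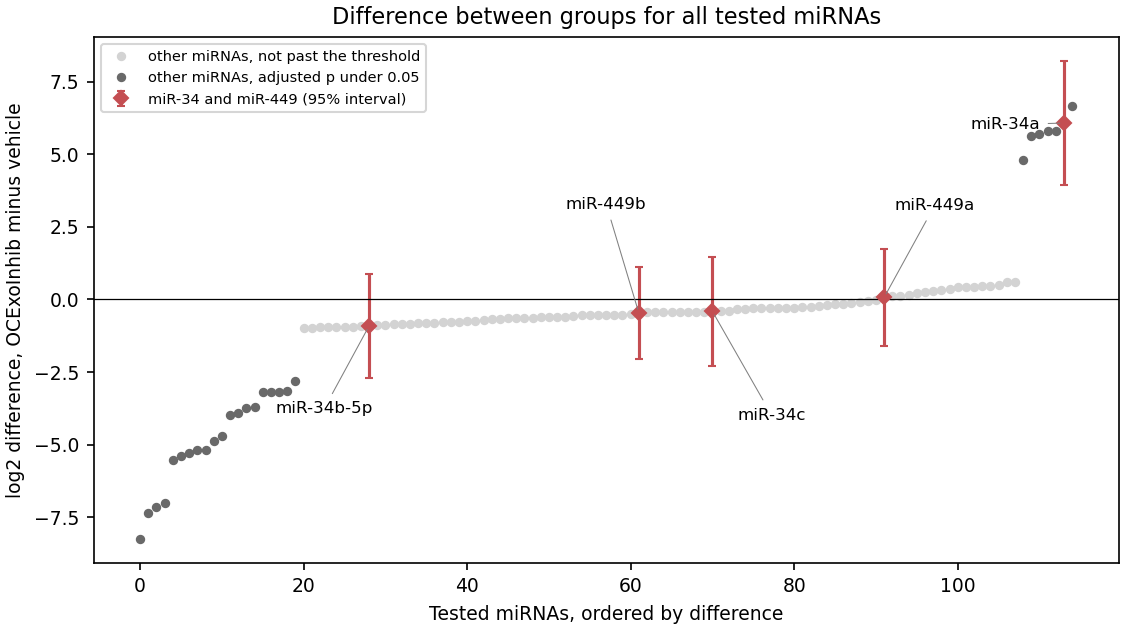
Log2 difference (y axis, OCExoInhib minus vehicle) of all 115 tested miRNAs, ordered along the x axis, with family members as red diamonds and their 95% intervals from limma. miR-34a stands at 6.07, rank 2 from the top, and the other 4 members lie between −0.91 and 0.07.

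miR-34b-5p, which is made from the same transcript as miR-34c, was detected late in both groups. Its Ct was 33.80, 34.276 and 36.043 in vehicle 1, 2 and 3, and 34.07, 35.117 and 35.497 in OCExoInhib 1, 2 and 3. The groups overlapped, and 3 of the 6 values were at 35 or later, which is the most the filter allows. The log2 difference was −0.91 (SE 0.85, 95% interval −2.72 to 0.89, limma adjusted p 0.866).

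miR-34c, from the same cluster and known for its part in osteoblasts and multiciliated cells, was the member with the earliest cycles. Its Ct was 22.746, 22.755 and 23.566 in vehicle 1, 2 and 3, and 21.77, 25.078 and 21.277 in OCExoInhib 1, 2 and 3. By mean Ct it was number 8 of the 123 measured miRNAs in vehicle and number 7 in OCExoInhib samples, an order that also depends on how well each assay amplifies. The vehicle samples fell inside the range of the OCExoInhib samples, of which OCExoInhib 2 stood apart with a log2 level of 5.55, beside 8.58 in OCExoInhib 1 and 8.325 in OCExoInhib 3. The log2 difference was −0.41 (SE 0.88, 95% interval −2.28 to 1.46, limma adjusted p 0.866) and turned to 0.56 without OCExoInhib 2 (adjusted p 0.920). OCExoInhib 2 was the lowest of its group by more than 2 on the log2 scale for 4 of the 115 tested miRNAs, miR-34c among them.

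miR-449a, from the Cdc20b locus and known from multiciliated cells, had Ct 30.847, 31.899 and 32.786 in vehicle 1, 2 and 3, and 31.09, 31.058 and 31.007 in OCExoInhib 1, 2 and 3. The OCExoInhib values thus spanned 0.083 cycles and lay inside the vehicle range of 1.939 cycles. The log2 difference was 0.07 (SE 0.79, 95% interval −1.61 to 1.74, limma adjusted p 0.949), and it was below 0 without vehicle 2, vehicle 3 or OCExoInhib 2.

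miR-449b, its cluster neighbour by name, had the narrowest Ct range of the 5 members over all samples. Its Ct was 33.476, 33.105 and 32.945 in vehicle 1, 2 and 3, and 32.825, 33.417 and 32.513 in OCExoInhib 1, 2 and 3. The groups overlapped, and all 6 values lay between 32.5 and 33.5. The log2 difference was −0.47 (SE 0.74, 95% interval −2.04 to 1.10, limma adjusted p 0.866).

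For the 4 members that did not pass, the intervals reach from −2.72 to 1.74 on the log2 scale, from the lowest bound (miR-34b-5p) to the highest (miR-449a), and changes within each member's own interval are not excluded. The authors' deposited table gave vehicle over OCExoInhib ratios of 1.883 for miR-34b-5p, 1.329 for miR-34c, 0.954 for miR-449a and 1.383 for miR-449b. The vehicle samples also differed among themselves by member. miR-34a, miR-34b-5p, miR-34c and miR-449a had their lowest Ct in vehicle 1 and their highest in vehicle 3, and miR-449b had the opposite extremes.

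The sign of the small differences depended on the normalization, whereas miR-34a passed under every normalization tried, with log2 differences from 5.59 to 8.60. Over all tested miRNAs the median difference was 0.64 after global mean normalization, 0.20 after quantile normalization and 0.18 on raw Ct, and it was 1.98 when each sample was centred on its own median. miR-34c and miR-449b turned above 0 with global mean (0.77 and 0.71), with no normalization (0.31 and 0.26), with median-of-ratios centring (0.32 and 0.26) and with well P23 alone (0.35 and 0.29). Median centring, which moved all miRNAs upward by 2.53, placed 4 of 5 members past the threshold, all but miR-34b-5p. Under it 57 miRNAs of the panel were called higher and 11 lower, beside 7 higher and 20 lower on the deposited normalization.

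**Figure D3:**
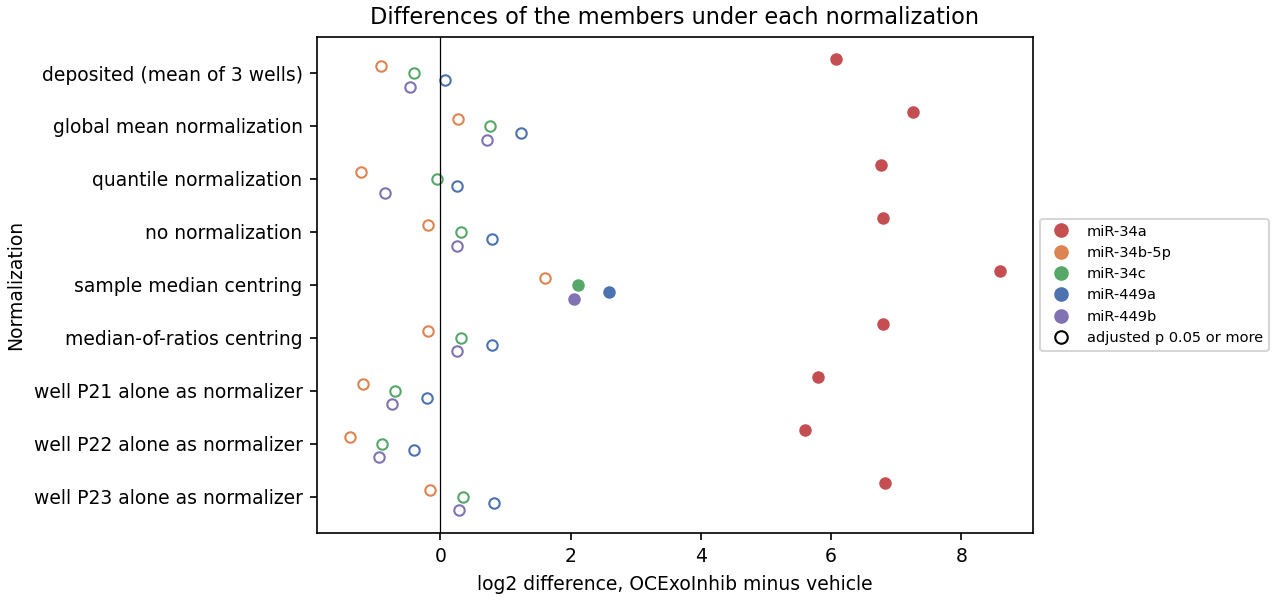
Log2 difference (x axis, OCExoInhib minus vehicle) of the 5 members under 9 normalizations (y axis), filled where the limma adjusted p was under 0.05. miR-34a lies between 5.59 and 8.60 throughout, and the other 4 members lie below it under each normalization, at 1.61 to 2.59 with sample median centring.

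Comparing members within a sample removes the normalizer. The gap, the log2 level of one member minus that of another in the same sample, was compared between groups for all 10 pairs with exact two-sided permutation tests, whose smallest possible p with 3 against 3 samples is 0.1. The gap between miR-34a and miR-449a was −3.27, −4.14 and −5.88 in vehicle 1, 2 and 3, and 1.55, 2.09 and 1.09 in OCExoInhib 1, 2 and 3. miR-34a thus came up later than miR-449a in every vehicle sample and earlier in every OCExoInhib sample. The gap was higher by 6.01 in OCExoInhib samples (exact permutation p 0.1, adjusted over 10 pairs 0.25).

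The gap of miR-34a was higher by 6.99 against miR-34b-5p, 6.48 against miR-34c and 6.54 against miR-449b, each without overlap of the groups and each with an exact permutation p of 0.1 (adjusted 0.25), the smallest the design allows. Against miR-34b-5p the mean gap went from −1.57 ± 1.17 with vehicle to 5.42 ± 0.82 with OCExoInhib (SD, n = 3 each). Against miR-34c it was −13.25 ± 1.87 and −6.77 ± 2.53, and against miR-449b −3.10 ± 2.55 and 3.44 ± 0.94. With Ct above 35 set to 35 the gap to miR-34b-5p was higher by 5.56 and that to miR-449a by 4.44.

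**Figure D4:**
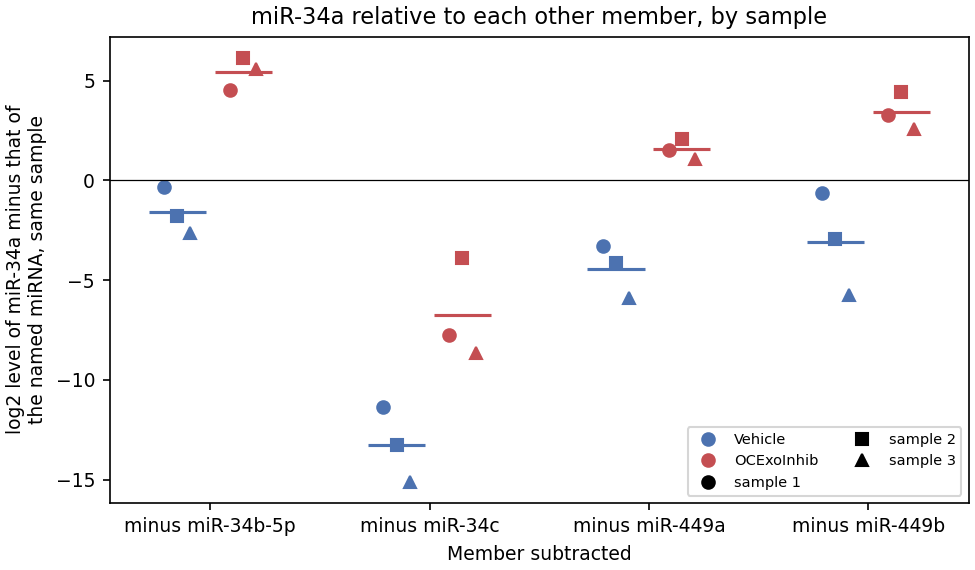
Log2 level of miR-34a minus that of each other member in the same sample (y axis) for the 3 vehicle (blue) and 3 OCExoInhib (red) samples, with bars at group means. In all 4 comparisons every OCExoInhib point lies above every vehicle point.

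In the 6 pairs without miR-34a the groups overlapped, and the gap moved by between −0.98 (miR-34b-5p and miR-449a, exact permutation p 0.2) and 0.54 (miR-449a and miR-449b, exact permutation p 0.5). The smallest adjusted p among them was 0.4. With Ct above 35 set to 35 the gap of miR-34b-5p and miR-449a moved by −1.12, with an exact permutation p of 0.1, the smallest possible. miR-34b-5p and miR-34c, which share a transcript and 21 of 23 bases, had gaps from −14.22 in OCExoInhib 3 to −10.039 in OCExoInhib 2. The mean gap was −11.68 ± 0.73 with vehicle and −12.19 ± 2.09 with OCExoInhib (SD, n = 3 each, exact permutation p 0.8). Whether the assays tell the members apart was not tested, and gaps between assays also depend on their efficiency.

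miR-34a was the member that carried a repeated Ct difference, a difference between 2 samples of a group that recurs in at least 4 other miRNAs within 0.0015 cycles. Its Ct in OCExoInhib 1 was 0.570 cycles above that in OCExoInhib 2, and the same difference was found for 9 other miRNAs. These were let-7e, miR-21, miR-29c, miR-30a, miR-145, miR-151-3p, miR-194, miR-378 and miR-501-3p. Of the other within-group differences of miR-34a only 1 was shared at all, that between vehicle 2 and vehicle 3, with miR-222. None of the other 4 members carried a repeated difference, beside 20.0% of all tested miRNAs that did. By call, 3 of 7 miRNAs called higher carried one, as did 19 of 20 called lower and 1 of 88 not past the threshold. How the repeated values arose and their part in the miR-34a result were not tested. Leaving out OCExoInhib 1 or OCExoInhib 2 gave log2 differences of 6.03 and 5.60 (limma adjusted p 0.00256 and 0.000116). Each of these fits kept the other sample of the repeated pair, so they cannot show what the repeat contributed.

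By the root mean square difference of centred log2 levels over the 6 samples, the miRNAs most like miR-34a were miR-501-3p (0.735), miR-127 (0.929) and miR-29c (1.13). All 3 were among the 7 miRNAs called higher, with at least 2 late vehicle values each and OCExoInhib Ct from 28.747 to 30.028. For example miR-501-3p had Ct 35.812, 35.881 and 39.118 in vehicle 1, 2 and 3, and 30.028, 29.458 and 29.206 in OCExoInhib 1, 2 and 3. miR-501-3p and miR-29c carry the same 0.570-cycle difference as miR-34a. In OCExoInhib samples the 7 miRNAs called higher had mean log2 levels from 0.27 (miR-28) to 0.87 (miR-140), where 0 is the well mean. The 20 called lower ran from −0.86 (miR-194) to −0.02 (miR-148a), apart from miR-107 (−2.31). Those that did not pass ran from −4.70 (miR-34b-5p) to 9.83 (miR-489). Why called miRNAs of either direction lay near the well mean was not tested.

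No member was among the 3 nearest profiles of another member. miR-34c was nearest to miR-29a (0.375), let-7d (0.424) and miR-200b (0.560), which were also lowest in OCExoInhib 2. miR-34b-5p was nearest to miR-30b (0.280), miR-106b (0.371) and miR-452 (0.440). miR-449a was nearest to miR-452 (0.362), miR-129-3p (0.401) and miR-325 (0.463), and miR-449b to miR-329 (0.195), miR-199a-5p (0.290) and miR-199a-3p (0.319). None of these 11 neighbours of the members that did not pass was itself past the threshold. These values describe 6 samples and share the normalizer wells.

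**Figure D5:**
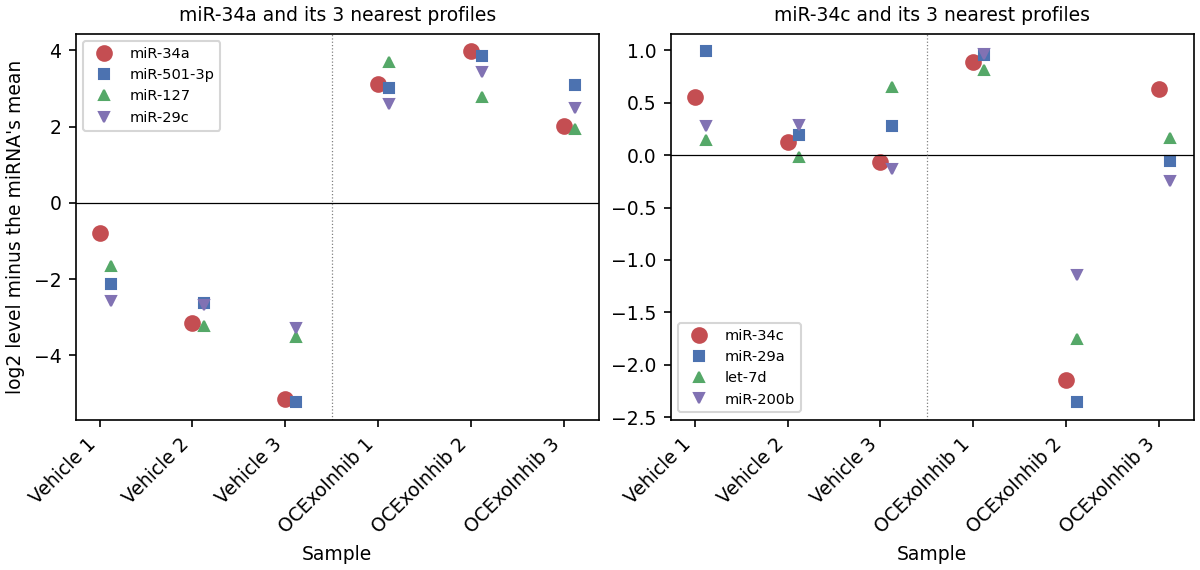
Log2 level minus each miRNA's mean (y axis) in the 6 samples (x axis) for miR-34a (left) and miR-34c (right), each with its 3 nearest profiles. miR-34a and its neighbours are low in all vehicle and high in all OCExoInhib samples, and miR-34c and its neighbours are lowest in OCExoInhib 2.

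Outside the family the panel held 10 miRNAs that p53 regulates through transcription or processing. Of these 8 were tested, and on the deposited normalization 0 were higher, 5 lower and 3 did not pass, with a median log2 difference of −3.95. Over all 115 tested miRNAs 6.09% were higher and 17.4% lower, and the median was −0.54. The list was chosen with earlier results of these data known, so these shares are not a test of p53 regulation. Those that fell were miR-107, which acts on metabolic and cell-cycle genes (−8.25, SE 1.38), miR-16 (−5.41, SE 0.88) and miR-15a (−4.70, SE 0.95), which restrain the cell cycle, miR-194 of liver and gut (−5.27, SE 0.93), and miR-145, which represses Sox9 (−3.20, SE 0.76). miR-141 (0.43), miR-192 (−0.16) and miR-200c (−0.30) did not pass. All 5 that fell carried a repeated Ct difference, as did 19 of the 20 miRNAs called lower on the whole panel.

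Among other miRNAs listed as restraining osteoclast formation, 0 of 5 tested passed in either direction, with a median log2 difference of −0.30. They were miR-125a-3p (0.47), miR-125a-5p (−0.30), miR-146a (−0.998), miR-26a (−0.74) and miR-503 (−0.10). The list named miR-125a without an arm, so both arms were counted, and a role of miR-125a-3p itself was not checked. Of 6 tested cartilage and osteoarthritis miRNAs outside the family, miR-140 was higher, miR-145 was lower and 4 did not pass. miR-140, which is enriched in cartilage, differed by 5.80 (SE 0.82, limma adjusted p 6.59e-05). Its mean Ct was 35.9 in vehicle samples, 2 of them late, and 29.3 in OCExoInhib samples. Like miR-34a, it entered the test through the group in which it was higher. miR-145 carried a repeated Ct difference. In the X-linked testis cluster, a marker of the germ line in which miR-34b, miR-34c and miR-449 are also known, 0 of 4 tested passed and the median was 0.23. Over all 115 tested miRNAs 23.5% passed and the median was −0.54. Lists of 4 to 6 tested miRNAs are too small to set apart from that share.

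The markers of cells that shed RNA into serum were measured in part. Those with no Ct in any sample were miR-451 and miR-486 of erythrocytes, miR-126-3p and miR-126-5p of endothelium, miR-155 and miR-142-3p of leukocytes, miR-122 of liver and miR-1 of muscle. Marker levels were summed on the linear scale and the sum was put back to log2, so the more abundant marker weighs most. The measured erythrocyte markers were miR-16 and miR-144 (2 of 4). Their sum ran from 4.74 to 7.28 in vehicle and from 2.75 to 4.65 in OCExoInhib samples. That of the measured platelet markers (2 of 3, miR-21 and miR-223) ran from 3.75 to 5.77 in vehicle and from −0.44 to 0.57 in OCExoInhib samples. Within them miR-16 and miR-21 fell (−5.41 and −4.87, both with a repeated Ct difference), miR-144 did not pass (−0.56) and miR-223 was not tested for late cycles. The muscle sum (2 of 3, miR-133a and miR-206) ran from 1.76 to 2.95 in vehicle and from −1.09 to 1.06 in OCExoInhib samples. Within it miR-133a fell (−2.82, with a repeated Ct difference) and miR-206 did not pass (−0.28). The liver sum (2 of 3, miR-192 and miR-194) overlapped, at 5.53 to 7.46 and 4.61 to 6.40, and so did the single leukocyte marker miR-150, at 2.27 to 3.86 and 3.36 to 4.00. The erythrocyte, platelet and muscle sums were lower in the group in which miR-34a was higher, and their part in the miR-34a result was not tested. A change in the number of vesicles of one origin and a change in RNA per vesicle cannot be told apart in bulk serum exosomes.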

How the data were processed

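Per the labels, exosomal RNA from mouse serum was purified on columns, reverse transcribed with a kit for exosomal miRNA and amplified for 40 cycles on a ViiA7 with SYBR Green. Per the file headers, the authors deposited raw Ct (a log2 scale), Ct relative to a spike-in control (log2) and a vehicle over OCExoInhib ratio. In all samples the deposited normalized log2 values equal raw Ct minus the mean of wells P21 to P23, which the header calls a spike-in control without naming it. The tables held 0 columns of samples outside the 6. The fluorescence threshold behind Ct was not given in the sources used here.

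For 115 miRNAs, levels were fitted by group (R 4.3.3, limma 3.58.1 with lmFit and eBayes). Two-sided p-values were adjusted by Benjamini-Hochberg and called under 0.05. The fit was also run on simulated independent normal levels without late or repeated values, so that run cannot show how such values affect it. Gaps between members used exact permutation tests (scipy 1.17.1, Python 3.11.15). Sequences were aligned with Biopython 1.88 (match 1, mismatch −1, gap opening −2, extension −1) and placed by exact match to RefSeq hairpins (GRCm38.p6).

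Named miRNAs are the members, other panel entries of the family or with its seed, the 3 nearest profiles of each member, list members past the threshold and the wells. miR-340 to miR-346, unrelated miRNAs whose names begin alike, were left out; list members that did not pass were named after their values were seen. The members, lists and alternatives were chosen with earlier results of these data known. Alternatives covered the normalization, Ct limits, variance model, sample number as a block, samples left out and repeated Ct differences. Deviations from group means correlated between equally numbered samples by 0.0588, 0.0177 and 0.117, and numbers were not treated as pairing. The number of cycles and of samples limits the precision.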

Additional observations from a re-analysis of the deposited data

How the results depend on the processing

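The difference of miR-34a kept its direction in all 22 alternatives that tested it and its side of the threshold in 21, of which the one with late Ct set to missing rests on 1 vehicle value. The exception was the unmoderated equal-variance test (log2 difference 6.07, adjusted p 0.0649), under which 0 members and 15 panel miRNAs passed. With samples left out it ran from 5.01 to 7.19, with 1 member and 24 to 27 panel miRNAs past the threshold. The replicate block (sample number as a term) left miR-34a at 6.07 (adjusted p 0.0174) with 25 panel miRNAs past the threshold, and it changed no member's call. Excluding miRNAs with a repeated Ct difference removed miR-34a, leaving 0 members and 5 panel miRNAs. A Ct under 35 in all samples also removed it and left 0 members. Quantile normalization gave 16 panel miRNAs and sample median centring 68, with 4 members.

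Signs turned for members that did not pass on the deposited normalization. Global mean normalization gave 0.27 for miR-34b-5p, 0.77 for miR-34c and 0.71 for miR-449b. Median centring gave 1.61, 2.12 and 2.06 for the same members and 2.59 for miR-449a, which then passed (adjusted p 0.0202). miR-34c and miR-449b were at 0.31 and 0.26 with no normalization, 0.32 and 0.26 with median-of-ratios centring, and 0.35 and 0.29 with well P23 alone. miR-449a was at −0.21 with well P21 alone and −0.41 with well P22 alone. With samples left out miR-34c ran from −0.96 to 0.56 and miR-449a from −0.27 to 0.60.

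For changes of the gap between members, capping Ct at 35 gave 5.56 for miR-34a and miR-34b-5p and 4.44 for miR-34a and miR-449a. With samples left out the change ran from −1.58 to 0.51 for miR-34b-5p and miR-34c, from −1.23 to 0.16 for miR-34b-5p and miR-449b, from −1.17 to 0.70 for miR-34c and miR-449a, from −0.46 to 0.99 for miR-34c and miR-449b, and from −0.051 to 1.18 for miR-449a and miR-449b. The 4 gaps with miR-34a stayed above 0 in all 9 alternatives run for them. That of miR-34b-5p and miR-449a stayed below 0 in all 9, from −1.41 to −0.66. Apart from the exclusions, which remove miR-34a by construction, the cause of these shifts was not tested. Late cycles limit miR-34a in vehicle samples and miR-34b-5p in both groups.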
